A study of Mus musculus with 9 samples.

Results

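The 10 genes described here carry prostaglandin signalling through its 3 steps: synthesis (Ptgs1, Ptgs2, Ptges, Ptgis and Ptgds), breakdown (Hpgd) and receptors (Ptger2, Ptger3, Ptger4 and Ptgfr). They were picked by symbol from the 31274 entries of the uterine RNA-Seq table, and each of the 10 symbols matched 1 entry. Whole uteri of C57BL/6 mice were collected on day 4.5 of pseudopregnancy, which was induced by mating adult virgin females to vasectomized males, so no embryo was present. RNA came from 4 Wnk1f/f and 5 Wnk1d/d mice, with 1 library per mouse. Wnk1f/f mice carry a Wnk1 allele whose exon 2 is flanked by loxP sites and have no Cre. Wnk1d/d mice carry the same floxed allele together with PGRCre, which drives Cre from the progesterone receptor gene, so that exon 2 is removed in PGR-expressing cells, in the ovary and pituitary as well as the uterus. Immune and endothelial cells lack PGR and keep WNK1, a serine-threonine kinase. The Cre allele is present in Wnk1d/d mice only, so its own effect and the loss of WNK1 cannot be told apart.

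Prostaglandins are lipid signals made from arachidonic acid, which phospholipases A2 release from membranes. The cyclooxygenases Ptgs1 and Ptgs2 turn it into a common precursor, terminal synthases turn that into prostaglandin E2, prostacyclin or prostaglandin D2, and each product acts through its own G protein-coupled receptors until it is oxidised inside cells. In the uterus they act on the blood vessels and stroma around implantation, where Ptgs2 is needed, and on contraction of the myometrium.

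The values are FPKM, fragment numbers scaled to exon length and library size, so levels of different genes can be compared per length. Genes whose mean FPKM exceeded 1 in either genotype, 14728 in all and 9 of the 10 described, were tested by limma on log2(FPKM + 1) with Benjamini-Hochberg adjustment. A gene passed when its adjusted p was under 0.05. Ptgs2 was under this minimum in both genotypes, and Ptgds reached it through the Wnk1d/d libraries only, so counts over the tested genes are descriptions. Each gene was compared a second time by a two-sided exact permutation test, whose p cannot go below 0.0079 with 4 and 5 libraries. Fold changes on the log2(FPKM + 1) scale understate those of genes with low FPKM, and ratios given here are of mean FPKM, Wnk1d/d over Wnk1f/f.

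Promoters of 3 of the genes are given first: those of the cyclooxygenases, the common first enzymes, whose levels lay far apart, and that of Ptger3, the receptor gene that passed the test. Each is the 250 bases before the start site from RefSeq on GRCm38.p6, written 5′ to 3′ on the strand of the gene, with matches to the searched motifs in capitals. The Ptgs1 window lies at chr2:36230176-36230425 on the plus strand and holds no annotated exon. Its capitals mark the reverse complement of AGAACA, the half-site bound by progesterone, glucocorticoid and androgen receptors, at -204 to -199 from the start site. The Ptgs2 window lies at chr1:150099781-150100030 on the plus strand, with 183 of its bases in an exon of the antisense gene Ptgs2os. Its capitals mark a GC box (GGGCGG). The Ptger3 window lies at chr3:157566626-157566875 on the plus strand, with no annotated exon, and holds 3 GC boxes on either strand. GC content was 48.0% for Ptgs1, 61.6% for Ptgs2 and 62.0% for Ptger3.
Ptgs1: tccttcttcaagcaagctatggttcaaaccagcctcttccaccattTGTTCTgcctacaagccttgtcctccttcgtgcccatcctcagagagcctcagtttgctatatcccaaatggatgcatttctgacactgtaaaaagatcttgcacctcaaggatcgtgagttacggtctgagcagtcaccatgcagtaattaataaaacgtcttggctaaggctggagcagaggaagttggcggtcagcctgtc
Ptgs2: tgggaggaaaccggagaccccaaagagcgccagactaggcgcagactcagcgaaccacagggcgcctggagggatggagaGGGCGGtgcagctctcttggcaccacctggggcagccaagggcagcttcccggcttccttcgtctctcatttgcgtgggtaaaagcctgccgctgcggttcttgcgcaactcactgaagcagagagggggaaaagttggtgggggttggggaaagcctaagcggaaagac
Ptger3: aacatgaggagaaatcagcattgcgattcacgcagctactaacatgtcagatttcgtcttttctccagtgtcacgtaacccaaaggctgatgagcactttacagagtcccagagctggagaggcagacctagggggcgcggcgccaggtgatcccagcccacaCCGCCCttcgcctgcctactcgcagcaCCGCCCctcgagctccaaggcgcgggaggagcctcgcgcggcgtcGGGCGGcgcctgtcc

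Of the 10 genes, 9 had a promoter entry (Ptgis had none), and the motifs were searched on both strands over 300 bases, from 250 before to 50 after the start site. The same windows of 32851 promoters gave the shares for comparison. A GC box was present in 6 of the 9 promoters and in 35.7% of all promoters. AGAACA was present in 3 (Ptgs1, Ptges and Ptger2) and in 19.0% of all. CCAAT was present in 2 (Ptger2 and Ptger4) and in 37.4% of all, and TATAAA, the letters of the TATA box, in 1 (Hpgd) and in 13.6% of all. The Hpgd match lay at 5 to 10 bases after the start site, not before it. AGGTCA, the estrogen response half-site, was present in Ptgfr and in 16.3% of all. The serum response element known as the CArG box was found in none of the 9 and in 1.63% of all. Both sites below are printed because they belong to the 2 genes with the highest ratios between the genotypes. The Ptgds site, chr2:25469768-25469794 on the minus strand, carries an AP-1 site (TGANTCA, present in 7.81% of all promoters) at -35 to -29 and lies in an annotated exon of another Ptgds transcript. The Ptgs2 site, chr1:150100036-150100060 on the plus strand, carries in its capitals, at 14 to 22 bases after the start site, the reverse complement of the cAMP response half-site TGACG (20.8% of all promoters) overlapping an E-box (CACGTG, 7.15% of all promoters). A match is a run of letters and does not show that a factor was bound.
Ptgds: aggccaagccTGACTCAtaaatagggg
Ptgs2: caccactaCGTCACGTGgagtccgc

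The targeted gene was lower in every Wnk1d/d library. Wnk1 (chr6:119923969-120038672, minus strand, mm10) had 44.92, 43.41, 47.32 and 45.52 FPKM in Wnk1f/f replicates 1 to 4 and 33.94, 29.85, 31.00, 30.16 and 31.27 FPKM in Wnk1d/d replicates 1 to 5, with a log2 fold change of -0.52 (SE 0.06, limma adjusted p = 0.0017). Exons outside the deletion contribute to this value. The uterine markers Esr1, Pgr, Hoxa10, Hoxa11 and Hand2 were detected in all libraries, and 3 of these 5 fell. Absolute depth is unknown, since the values hold no counts. In Wnk1d/d replicate 4 one short transcript held 70.3% of all FPKM, and the 6 liver markers summed to 158 FPKM in Wnk1f/f replicate 4 against 8.28 to 28.1 FPKM in the other libraries. The sum of the 4 mesothelial markers was highest in Wnk1d/d replicate 1, with 115 FPKM. Results are also given without Wnk1f/f replicate 4 and Wnk1d/d replicate 1, a choice made after seeing these values. Wnk1d/d replicate 4 was not part of that pair and was left out only on its own.

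Of the 9 tested prostaglandin genes, 3 rose in Wnk1d/d uteri (Ptgis, Ptgds and Ptger3) and 0 fell. Among all 14728 genes tested, 11.1% rose and 11.0% fell. With a ratio of at least 1.5 as well, 2 of the 9 remained (Ptgis and Ptgds), where 5.09% of all genes tested met both criteria with Wnk1d/d higher and 5.18% with Wnk1d/d lower, or 10.3% together. The median log2 fold change of the 9 genes was 0.02, beside 0.00 over all genes tested. Libraries of the genotypes did not overlap for Ptgs2 and Ptgds, which were higher in Wnk1d/d, and for Ptgfr, which was lower. Of all genes tested, 19.9% did not overlap, with 9.27% higher and 10.6% lower. Of the 7221 entries under the FPKM minimum, as Ptgs2 was, that had a value above 0 in some library, 1.98% had no overlap with Wnk1d/d higher. The 3 genes that rose were all lost, leaving 0, when Wnk1f/f replicate 4 and Wnk1d/d replicate 1 were both left out. Ptgds alone, 1 gene, remained risen without Wnk1d/d replicate 1 or 5 or Wnk1f/f replicate 2 or 4, and the number past the ratio of 1.5 dropped to 1 in the same fits and without Wnk1d/d replicate 3. By step, 2 of 3 terminal synthases rose, and so did 1 of 4 receptors. The tested cyclooxygenase and the breakdown gene did not pass.

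**Figure D1:**
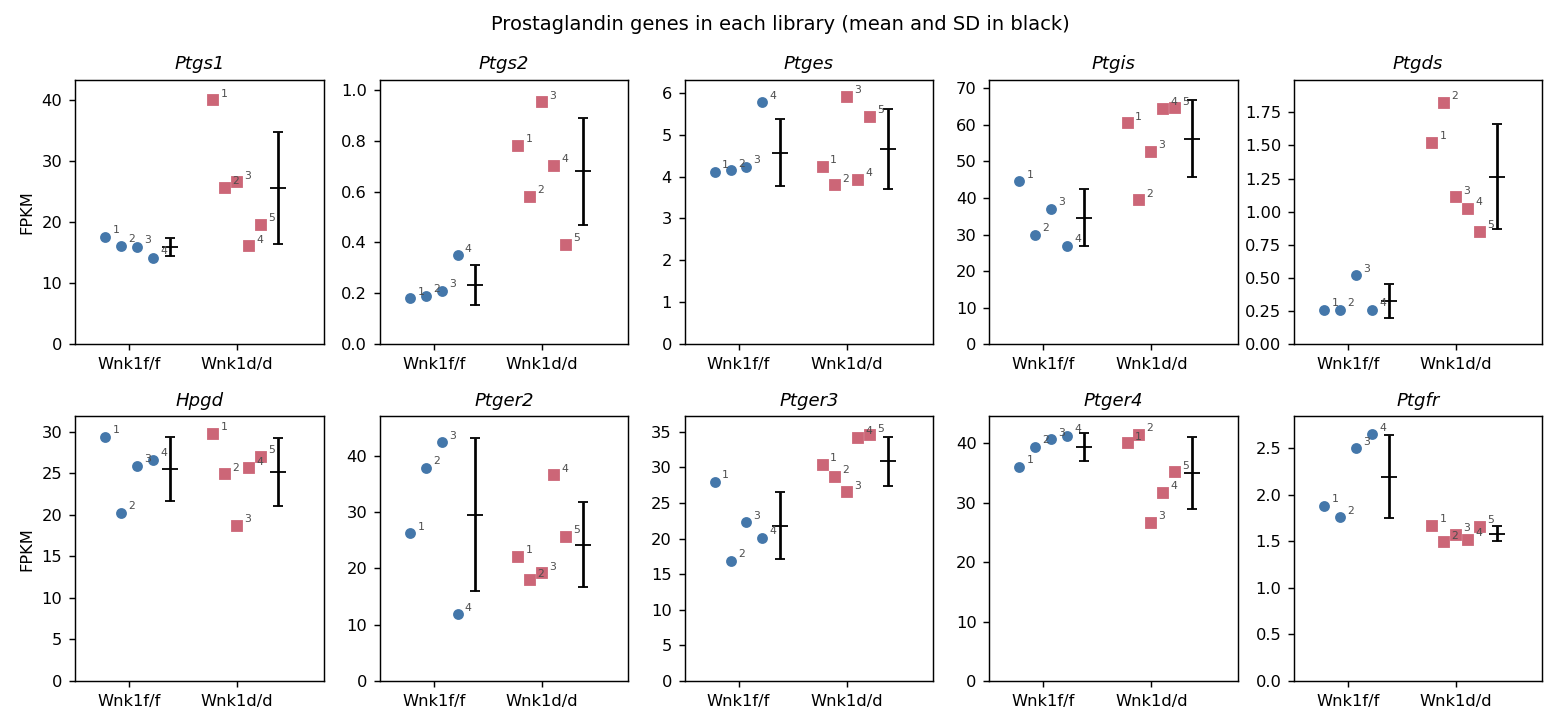
FPKM of the 10 prostaglandin genes in each library (vertical axis, FPKM on a linear scale from 0; numbers beside the points are replicates). Circles are the 4 Wnk1f/f and squares the 5 Wnk1d/d libraries, with the mean and SD in black; the genotypes do not overlap for Ptgs2, Ptgds and Ptgfr.

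The cyclooxygenases differed widely in level. Ptgs1, the constitutive enzyme, lies on the plus strand at chr2:36230426-36252272. It had 17.64, 16.13, 15.91 and 14.15 FPKM in Wnk1f/f replicates 1 to 4 and 39.98, 25.64, 26.55, 16.04 and 19.53 FPKM in Wnk1d/d replicates 1 to 5. The controls lay close together, while the Wnk1d/d libraries were spread, with replicate 1 highest and replicate 4 within the control range. The means were 16.0 ± 1.43 FPKM (SD, n = 4) and 25.5 ± 9.16 FPKM (SD, n = 5). On the log2 scale the change was 0.59 (SE 0.22, 95% interval 0.10 to 1.07, limma adjusted p = 0.0797, exact permutation p = 0.0635). Ptgs1 passed without Wnk1d/d replicate 4 (log2 fold change 0.73, limma adjusted p = 0.0340), the one alternative in which it did. The 4 mesothelial markers, of which Lrrn4 rose, Wt1 fell and none was at 0, summed to 60.5 to 87.4 FPKM in Wnk1f/f and 65.2 to 115 FPKM in Wnk1d/d libraries. Their sum was highest in Wnk1d/d replicate 1, as Ptgs1 was. Wt1 held most of it, with means of 61.7 and 46.1 FPKM beside summed means of 75.5 and 78.7 FPKM. Msln (ratio 2.70), Upk3b (1.96) and Lrrn4 (3.09) had higher means in Wnk1d/d and were highest in replicate 1, and of these Lrrn4 alone passed. Wnk1d/d replicate 1 was also highest for the sums of the 5 epithelial markers (976 FPKM, none past the test), the mast cell markers (46.9 FPKM) and the oviduct and ovary markers (159 FPKM). The oviduct and ovary list put the Wnk1d/d libraries in the same order as Ptgs1, replicate 1, 3, 2, 5 and 4. Among the controls the orders differed, with replicate 1, 2, 3 and 4 for Ptgs1 and replicate 3, 2, 1 and 4 for that list. Within the list, Ovgp1 was highest in Wnk1d/d replicate 1 (83.18 FPKM), while Inha was lowest there (8.41 FPKM). The ranges of the mast cell and of the oviduct and ovary lists are given beside Ptgds, and 5 epithelial markers summed to 598 to 900 FPKM in Wnk1f/f and 595 to 976 FPKM in Wnk1d/d. The part of these lists in the Ptgs1 values was not tested. An antisense gene of unknown function, Gm43621, shares 148 exonic bases with Ptgs1, or 3.81% of them.

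Ptgs2, the inducible cyclooxygenase, lies on the plus strand at chr1:150100031-150108227. It had 0.18, 0.19, 0.21 and 0.35 FPKM in Wnk1f/f and 0.78, 0.58, 0.95, 0.70 and 0.39 FPKM in Wnk1d/d replicates. Every Wnk1d/d library was above every control, with the closest pair being Wnk1f/f replicate 4 and Wnk1d/d replicate 5. The means were 0.233 ± 0.0793 FPKM (SD, n = 4) and 0.680 ± 0.211 FPKM (SD, n = 5), a ratio of 2.92, at a level under the minimum of the test. The difference of log2(FPKM + 1) was 0.44 (exact permutation test, p = 0.0159, unadjusted), and in the fit without a minimum limma gave an adjusted p of 0.0199. Despite this ratio, Ptgs1 exceeded Ptgs2 in every library, by 40.4 to 98.0 times in Wnk1f/f and by 22.9 to 51.3 times in Wnk1d/d uteri. Those ranges overlapped.

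The terminal synthases did not move together. Ptges, the inducible prostaglandin E synthase (chr2:30889471-30929863, minus strand), had 4.12, 4.15, 4.24 and 5.77 FPKM in Wnk1f/f and 4.24, 3.79, 5.90, 3.92 and 5.43 FPKM in Wnk1d/d replicates. The genotypes lay over the same range. Between the genotypes the log2 fold change was 0.02 with a 95% interval of -0.29 to 0.33 (limma adjusted p = 0.943), and its sign was not stable, running from -0.06 to 0.14 over the alternatives.

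Ptgis, the prostacyclin synthase, rose and was the most abundant of the 10 transcripts in Wnk1d/d uteri. The gene lies on the minus strand at chr2:167191805-167240604. It had 44.60, 29.96, 36.95 and 26.93 FPKM in Wnk1f/f and 60.42, 39.32, 52.57, 64.44 and 64.46 FPKM in Wnk1d/d replicates. All Wnk1d/d libraries but replicate 2 were above all controls, and replicate 2 was below Wnk1f/f replicate 1. The means were 34.6 ± 7.87 FPKM (SD, n = 4) and 56.2 ± 10.6 FPKM (SD, n = 5), a ratio of 1.63. The log2 fold change was 0.69 (SE 0.18, 95% interval 0.29 to 1.09, limma adjusted p = 0.0260, exact permutation p = 0.0238). The call was lost when Wnk1d/d replicate 1, 3, 4 or 5 or Wnk1f/f replicate 2 or 4 was left out (limma adjusted p = 0.0534 to 0.0720), with log2 fold changes of 0.58 to 0.71. Gene 1110018N20Rik on the opposite strand shares 156 exonic bases (6.08%).

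Smooth muscle markers moved with Ptgis. All 6 (Myh11, Acta2, Actg2, Cnn1, Tagln and Des) rose, none was at 0, and their summed level was 2797 to 6372 FPKM in Wnk1f/f and 7210 to 13655 FPKM in Wnk1d/d libraries, a ratio of 2.34. Among the controls the order from highest to lowest was replicate 1, 3, 2 and 4 both for Ptgis and for the markers, and among the Wnk1d/d libraries replicate 2 was lowest and replicates 4 and 5 highest for both. Ptgis per 1000 FPKM of these markers was 7.00 to 9.63 in Wnk1f/f and 4.72 to 6.38 in Wnk1d/d, so relative to them it was lower in every Wnk1d/d library. The part of smooth muscle in the higher Ptgis was not tested. In whole tissue, more or fewer cells of a type and more or less RNA per cell cannot be told apart.

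**Figure D2:**
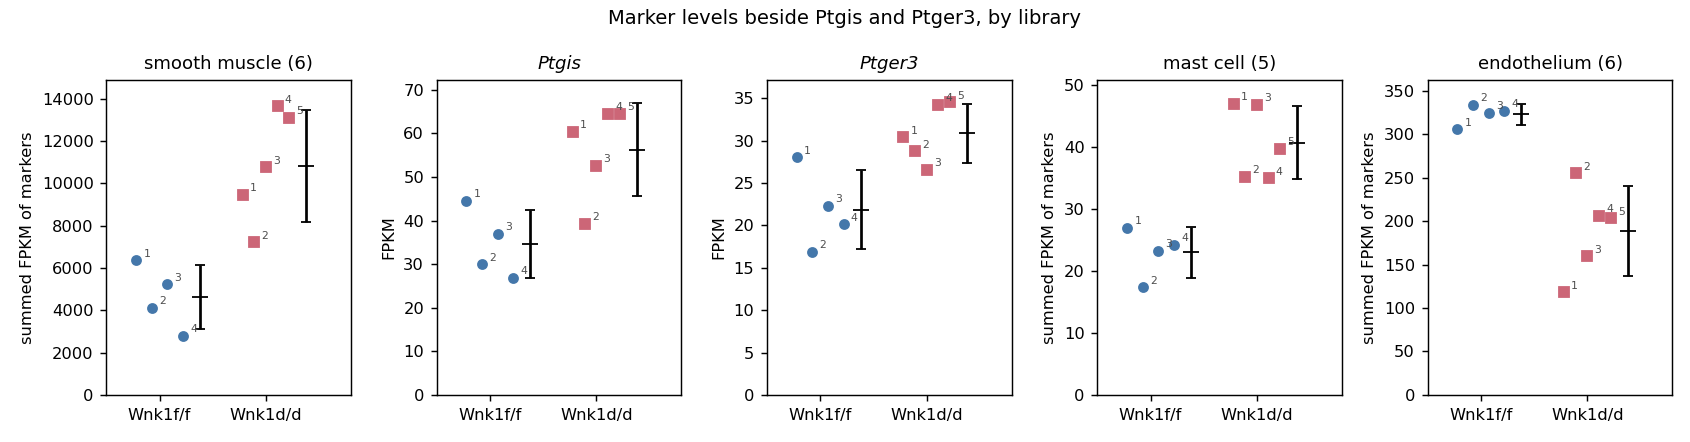
Summed FPKM of smooth muscle, mast cell and endothelial markers (number of genes in brackets) beside FPKM of Ptgis and Ptger3 in each library, on linear axes from 0; circles are Wnk1f/f, squares Wnk1d/d, numbers are replicates, and black marks are mean and SD. Smooth muscle and mast cell markers were higher and endothelial markers lower in every Wnk1d/d library, and Ptgis and Ptger3 each had 1 Wnk1d/d library below Wnk1f/f replicate 1.

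Ptgds, the lipocalin-type prostaglandin D synthase, rose from a low level. It lies on the minus strand at chr2:25466709-25470046. It had 0.26, 0.26, 0.52 and 0.26 FPKM in Wnk1f/f and 1.52, 1.82, 1.11, 1.02 and 0.85 FPKM in Wnk1d/d replicates. Every Wnk1d/d library was above every control, and Wnk1f/f replicate 3 stood above the other controls, which were equal at the 2 decimals given. The means were 0.325 ± 0.130 FPKM (SD, n = 4) and 1.26 ± 0.397 FPKM (SD, n = 5), a ratio of 3.89 and the highest among the 10 genes. The log2 fold change was 0.76 (SE 0.15, 95% interval 0.43 to 1.09, limma adjusted p = 0.0094, exact permutation p = 0.0079). It passed in 17 of 19 alternatives, including all in which 1 library was left out, and missed the threshold without Wnk1f/f replicate 4 and Wnk1d/d replicate 1 together (limma adjusted p = 0.0520).

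The mast cell list, some oviduct and ovary markers and Fabp4 were, like Ptgds, higher in Wnk1d/d, but their libraries followed other orders. Within Wnk1d/d, Ptgds was highest in replicate 2 and lowest in replicate 5. Fabp4 was lowest in replicate 2 (7.11 FPKM) and highest in replicate 5 (18.08 FPKM). The mast cell and the oviduct and ovary lists were highest in replicate 1. Of 5 mast cell markers 4 rose, none was at 0, and they summed to 17.4 to 27.0 FPKM in Wnk1f/f and 34.9 to 46.9 FPKM in Wnk1d/d. Of 5 tested oviduct and ovary markers 2 rose (Ovgp1 and Pax8), with Foxj1 under the minimum and none at 0. Star (ratio 1.33), Cyp11a1 (3.69) and Inha (0.847) did not pass, and Inha had the lower mean in Wnk1d/d. The list summed to 55.3 to 74.6 FPKM in Wnk1f/f and 97.6 to 159 FPKM in Wnk1d/d. Most of that difference came from Ovgp1, with means of 11.3 and 52.6 FPKM, and Pax8, with 34.8 and 51.9 FPKM. The sum therefore does not stand for all genes of the list. Fabp4, the only adipocyte marker of 6 that was tested, rose, Lep was at 0 in every library, and the list summed to 1.93 to 6.55 FPKM in Wnk1f/f and 7.34 to 18.3 FPKM in Wnk1d/d. That sum was nearly all Fabp4, and Adipoq (0.095 and 0.010 FPKM), Cfd (0.32 and 0.19 FPKM) and Retn (0.053 and 0.042 FPKM) had lower means in Wnk1d/d. Their part in the higher Ptgds was not tested. The other prostaglandin D synthase, Hpgds, which is found in blood-derived cells, did not pass (log2 fold change 0.04, limma adjusted p = 0.926), with 11.8 FPKM in Wnk1f/f and 12.1 FPKM in Wnk1d/d. It was named for its role after its values were seen.

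Breakdown showed no difference that the test could detect. Hpgd encodes 15-hydroxyprostaglandin dehydrogenase, which oxidises prostaglandins E2 and F2α, and lies on the plus strand at chr8:56294585-56321043. It had 29.38, 20.23, 25.91 and 26.66 FPKM in Wnk1f/f and 29.79, 24.88, 18.69, 25.60 and 27.00 FPKM in Wnk1d/d replicates. Libraries of the genotypes covered nearly the same range. The means were 25.5 ± 3.84 FPKM (SD, n = 4) and 25.2 ± 4.09 FPKM (SD, n = 5), and the 95% interval of the log2 fold change ran from -0.34 to 0.29 around -0.02 (limma adjusted p = 0.923). Set against Hpgd in the same library, Ptgis was 1.01 to 1.52 times as high in Wnk1f/f and 1.58 to 2.81 times as high in Wnk1d/d, without overlap. Ptgs1 was 0.531 to 0.797 times as high as Hpgd in Wnk1f/f and 0.627 to 1.42 times as high in Wnk1d/d, and these ranges overlapped.

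Among the receptors, Ptger3 rose. It encodes EP3, a prostaglandin E2 receptor that mainly lowers cAMP, and lies on the plus strand at chr3:157566892-157645888. It had 28.01, 16.90, 22.31 and 20.11 FPKM in Wnk1f/f and 30.36, 28.71, 26.53, 34.18 and 34.52 FPKM in Wnk1d/d replicates. Of the Wnk1d/d libraries, replicate 3 was below Wnk1f/f replicate 1, and the other 4 were above all controls. The means were 21.8 ± 4.68 FPKM (SD, n = 4) and 30.9 ± 3.47 FPKM (SD, n = 5), a ratio of 1.41, which is under 1.5. Its log2 fold change was 0.50 (SE 0.14, 95% interval 0.19 to 0.80, limma adjusted p = 0.0308, exact permutation p = 0.0159). The call was lost when Wnk1d/d replicate 1, 4 or 5 or Wnk1f/f replicate 2, 3 or 4 was left out (limma adjusted p = 0.0524 to 0.0803). The smooth muscle markers given beside Ptgis were higher in Wnk1d/d as Ptger3 was, but the order of libraries matched in part only. Wnk1f/f replicate 1 and Wnk1d/d replicates 4 and 5 were highest in their groups for both. Ptger3 was lowest in Wnk1f/f replicate 2 and Wnk1d/d replicate 3, and the markers in Wnk1f/f replicate 4 and Wnk1d/d replicate 2. Ptger3 per 1000 FPKM of these markers was 4.11 to 7.19 in Wnk1f/f and 2.47 to 3.98 in Wnk1d/d. Their part in the higher Ptger3 was not tested.

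EP2 and EP4, the prostaglandin E2 receptors that raise cAMP, did not pass. Ptger2 (EP2, chr14:44988195-45003820, plus strand) had 26.19, 37.79, 42.33 and 11.84 FPKM in Wnk1f/f and 22.02, 17.87, 19.10, 36.49 and 25.57 FPKM in Wnk1d/d replicates. It varied more among the controls than any of the other 9 genes, with an SD of 46.1% of the mean, and both the lowest and the highest value were in controls. Its log2 fold change was -0.18 with a 95% interval of -0.96 to 0.60 (limma adjusted p = 0.728), so a difference of nearly 2-fold lower lies within the interval.

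Ptger4 (EP4, chr15:5206661-5244187, minus strand) had 36.07, 39.42, 40.67 and 41.22 FPKM in Wnk1f/f and 39.99, 41.46, 26.66, 31.67 and 35.15 FPKM in Wnk1d/d replicates. It was the most abundant and the least variable of the 10 transcripts in controls, with an SD of 5.87% of the mean, while Wnk1d/d replicates 3, 4 and 5 were below all controls. The log2 fold change was -0.18 (95% interval -0.45 to 0.09, limma adjusted p = 0.299). Opposite-strand genes overlap both receptors: Gm49364 by 144 and Gm17173 by 246 exonic bases of Ptger2, and Ttc33 by 82 and the pseudogene Gm15937 by 1015 exonic bases (15.3%) of Ptger4. Whether counting used strand is not given in the sources used here, so reads of such pairs cannot be told apart.

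Of the EP receptors, Ptger3 alone had a share of their summed level that did not overlap between the genotypes, and the shares were not tested. The summed level itself was nearly the same. FPKM of Ptger1 to Ptger4 summed to 104 ± 13.8 (SD, n = 4) in Wnk1f/f and 104 ± 10.5 (SD, n = 5) in Wnk1d/d libraries. Ptger3 held 15.8% to 26.7% of this sum in Wnk1f/f and 27.8% to 31.6% in Wnk1d/d, without overlap but with the nearest libraries close together. Ptger4 held 34.4% to 48.4% and 27.3% to 40.1%, Ptger2 13.9% to 35.8% and 17.3% to 31.5%, and Ptger1 11.0% to 14.1% and 9.63% to 17.4%, in the same order of genotypes. These other 3 shares overlapped. Ptger3 was below Ptger4 in all 4 controls and in Wnk1d/d replicates 1, 2, 3 and 5, and above it in Wnk1d/d replicate 4.

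**Figure D3:**
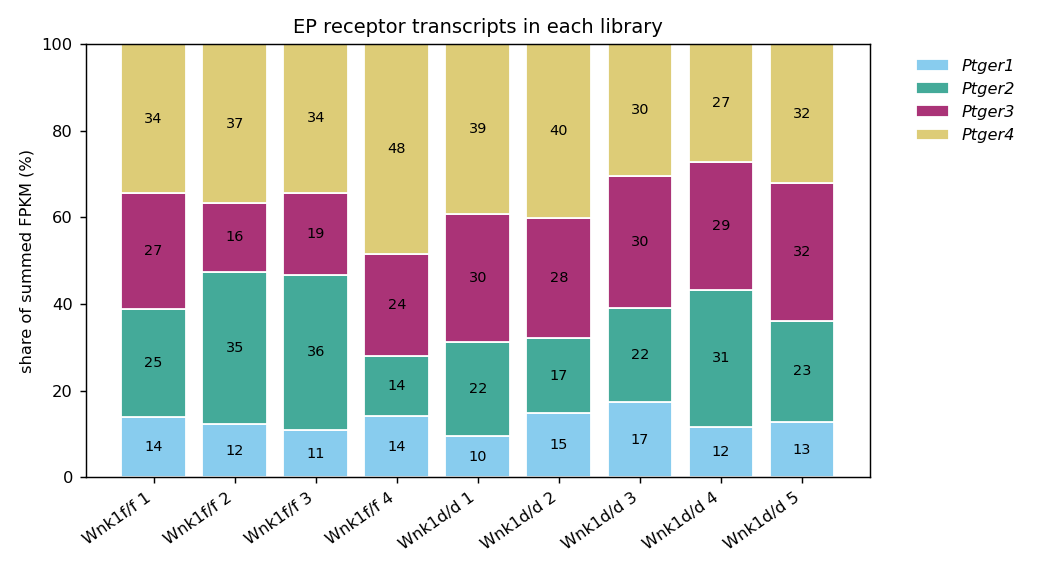
Share of the summed FPKM of Ptger1 to Ptger4 (vertical axis, percent) held by each EP receptor transcript in each of the 9 libraries, with the rounded percent printed in each segment. The Ptger3 segment was 15.8% to 26.7% in the 4 Wnk1f/f and 27.8% to 31.6% in the 5 Wnk1d/d libraries.

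Ptgfr, the receptor of prostaglandin F2α that raises calcium in smooth muscle, lies on the minus strand at chr3:151796502-151837630. It had 1.88, 1.76, 2.50 and 2.65 FPKM in Wnk1f/f and 1.67, 1.49, 1.57, 1.52 and 1.66 FPKM in Wnk1d/d replicates. Every Wnk1d/d library was below every control, though Wnk1f/f replicate 2 was only just above Wnk1d/d replicate 1, and the Wnk1d/d values were tightly grouped. The means were 2.20 ± 0.443 FPKM (SD, n = 4) and 1.58 ± 0.0811 FPKM (SD, n = 5), a ratio of 0.720. The log2 fold change was -0.30 (SE 0.11, 95% interval -0.53 to -0.06), with a limma adjusted p of 0.0685 and an exact permutation p of 0.0079. Ptgfr passed in the fit without a trend (limma adjusted p = 0.0478) and without Wnk1f/f replicate 2 (limma adjusted p = 0.0468). An antisense gene, Gm43618, shares 329 exonic bases (4.85%).

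The order of levels per length was alike at the low end. In Wnk1f/f uteri it was Ptger4, Ptgis, Ptger2, Hpgd, Ptger3 and Ptgs1, each overlapping the next, then Ptges, Ptgfr and Ptgds, with no overlap at each of these 3 steps, and Ptgs2, which overlapped Ptgds. In Wnk1d/d uteri it was Ptgis, Ptger4, Ptger3, Ptgs1, Hpgd and Ptger2, again each overlapping the next, then Ptges and Ptgfr without overlap, and Ptgds and Ptgs2, which overlapped their neighbours.

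The rest of the pathway was read from a list of 30 other genes, of which 20 were tested, 4 rose and 1 fell. Among all genes tested, 11.1% rose, 11.0% fell and 19.9% had no overlap of the genotypes, so the pathway counts are descriptions. The median log2 fold change of the 20 was 0.14, beside 0.00 over all genes tested. Without Wnk1f/f replicate 4, 2 of the pathway genes rose and 0 fell. Of 13 phospholipases A2, the enzymes that release arachidonic acid, 10 were under the minimum: Pla2g4b, Pla2g4c, Pla2g4d, Pla2g4e, Pla2g4f, Pla2g2d, Pla2g2e, Pla2g2f, Pla2g3 and Pla2g5. The 3 tested did not pass, among them Pla2g4a, the cytosolic enzyme, with 20.5 ± 5.63 FPKM (SD, n = 4) and 25.1 ± 6.55 FPKM (SD, n = 5) in the order of genotypes used so far (log2 fold change 0.29, limma adjusted p = 0.367). Pla2g6 had 14.0 ± 0.664 FPKM and 12.7 ± 1.17 FPKM (limma adjusted p = 0.234). Of the 10 under the minimum, Pla2g3 alone did not overlap, with 0.51 to 0.55 FPKM in Wnk1f/f and 0.29 to 0.36 FPKM in Wnk1d/d, and is named after its values were seen.

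Of 6 other synthases, 1 rose. Ptges2, a further prostaglandin E synthase, had 10.49, 11.19, 10.51 and 9.04 FPKM in Wnk1f/f and 14.98, 13.50, 20.83, 16.17 and 14.89 FPKM in Wnk1d/d replicates, without overlap. Its ratio was 1.56 (log2 fold change 0.58, SE 0.12, limma adjusted p = 0.0104), so of the genes that can make prostaglandin E2 it passed while Ptges did not. The third, Ptges3, also known as the HSP90 cochaperone p23, had 23.2 ± 5.17 FPKM (SD, n = 4) and 27.8 ± 5.12 FPKM (SD, n = 5), with a limma adjusted p of 0.286. Cbr1, a carbonyl reductase that can turn prostaglandin E2 into F2α, had 54.2 ± 5.57 FPKM and 53.8 ± 2.13 FPKM (limma adjusted p = 0.963).

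Of 4 other genes of breakdown and transport, Abcc4 rose. It encodes a pump that carries prostaglandins out of cells, with 13.02, 10.60, 12.69 and 13.58 FPKM in Wnk1f/f and 14.52, 17.99, 17.07, 14.39 and 14.63 FPKM in Wnk1d/d replicates. The genotypes did not overlap, but the ratio was only 1.26 (log2 fold change 0.31, SE 0.09, limma adjusted p = 0.0426). It passed in 8 of 20 alternatives and in none of the 9 in which 1 library was left out, where the limma adjusted p was 0.0534 to 0.0971. The reductases Ptgr1 and Ptgr2, which act after Hpgd, did not pass (limma adjusted p = 0.448 and 0.480).

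Of 7 other receptor genes, 2 rose and 1 fell. Ptgfrn encodes a membrane protein that associates with the prostaglandin F receptor and lowers its ligand binding. It had 32.05, 26.58, 31.63 and 23.13 FPKM in Wnk1f/f and 52.19, 39.05, 48.30, 50.67 and 51.19 FPKM in Wnk1d/d replicates, a ratio of 1.70 without overlap (log2 fold change 0.75, SE 0.12, limma adjusted p = 0.0051). The smooth muscle markers given beside Ptgis were higher in Wnk1d/d as Ptgfrn was, and the order of libraries matched in part. The controls had the same order, replicate 1, 3, 2 and 4, and Wnk1d/d replicate 2 was lowest in its group for both. Among the Wnk1d/d libraries Ptgfrn was highest in replicate 1 and the markers in replicate 4. The part of these markers in the higher Ptgfrn was not tested. Ptgfr itself, as given, was lower in every Wnk1d/d library and did not pass.

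Tbxa2r, the thromboxane receptor, had 3.35, 2.47, 3.26 and 2.36 FPKM in Wnk1f/f and 3.53, 4.16, 4.63, 4.84 and 4.79 FPKM in Wnk1d/d replicates, without overlap (log2 fold change 0.49, SE 0.12, limma adjusted p = 0.0187). Its controls also followed the order of the smooth muscle markers, while among the Wnk1d/d libraries replicate 1 was lowest for Tbxa2r and replicate 2 for the markers, and the part of smooth muscle was not tested. Ptgdr, the receptor of prostaglandin D2 known as DP1, had 3.17, 1.35, 0.98 and 3.17 FPKM in Wnk1f/f and 0.56, 0.90, 0.27, 0.27 and 0.25 FPKM in Wnk1d/d replicates. Its ratio was 0.208, without overlap (log2 fold change -1.07, SE 0.25, limma adjusted p = 0.0183), the direction opposite to that of Ptgds. Ptgdr reached the FPKM minimum through the Wnk1f/f libraries only, where it was high, as Ptgds did through the Wnk1d/d libraries, so its place in the count of fallen genes is a description. Without Wnk1f/f replicate 4 both missed the threshold, with limma adjusted p = 0.0535 for Tbxa2r and 0.0511 for Ptgdr. The prostacyclin receptor Ptgir, named after its values were seen as the receptor of the product of Ptgis, had 2.70 ± 0.999 FPKM (SD, n = 4) and 3.18 ± 0.653 FPKM (SD, n = 5) and did not pass (limma adjusted p = 0.466). Ptger1 had 13.2 ± 1.07 FPKM and 13.6 ± 2.22 FPKM (limma adjusted p = 0.887).

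**Figure D4:**
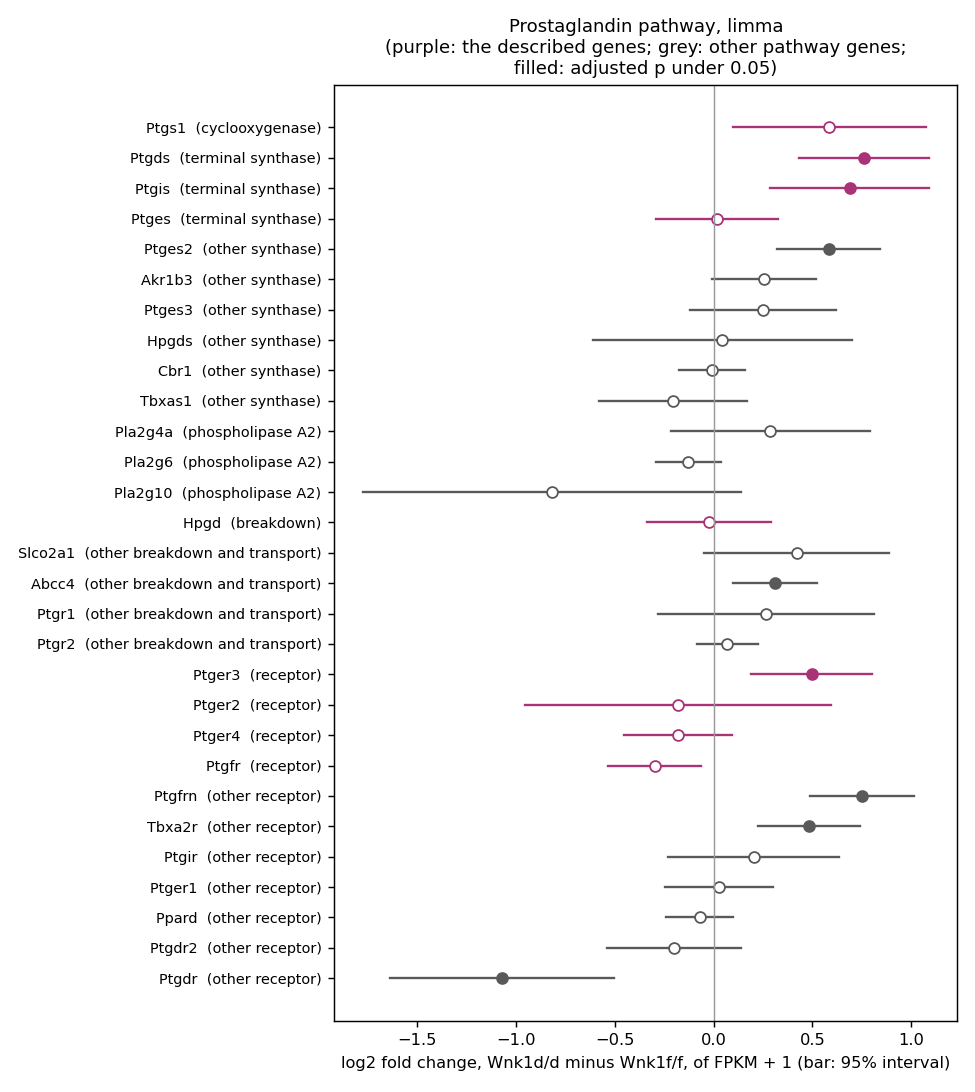
Log2 fold change of log2(FPKM + 1), Wnk1d/d minus Wnk1f/f (horizontal axis, linear), with its 95% limma interval for the 9 tested prostaglandin genes (purple) and the 20 other tested pathway genes (grey), grouped by role. Filled points passed an adjusted p of 0.05: Ptgds, Ptgis, Ptger3, Ptges2, Abcc4, Ptgfrn and Tbxa2r to the right of 0 and Ptgdr to the left.

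Other cell type markers differed between the genotypes as well. Of 6 endothelial markers 5 fell, with a sum of 306 to 334 FPKM in Wnk1f/f and 118 to 255 FPKM in Wnk1d/d. Of 6 stromal markers 5 fell (1069 to 1330 and 965 to 1138 FPKM), and of 5 gland markers 2 fell (3078 to 6036 and 490 to 1914 FPKM). The remaining stromal marker, Dcn, did not pass (ratio 1.14). It held much of the stromal sum, with means of 563 and 645 FPKM beside summed means of 1208 and 1068 FPKM. Hoxa10, Hoxa11 and Hand2 are in both the stromal and the uterine list. The gland sum was nearly all Prss28 and Prss29, the pair that fell, while Foxa2 (ratio 1.16), Cxcl15 (1.81) and Wfdc3 (1.14) did not pass. None of the 5 epithelial markers and none of the 4 tested macrophage markers passed. No marker of these lists was at 0 in every library. The part of these cells in the lower Ptgdr and Ptgfr values was not tested.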

How the data were processed

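Uterine RNA of 4 Wnk1f/f and 5 Wnk1d/d mice, 1 library each, was analysed, grouped by the sample labels. The authors aligned paired-end reads to mm10 with TopHat2 2.0.4 and deposited FPKM values from Cufflinks, 1 column per library without pooling. The submitters' processing notes give Cufflinks 2.0.2, and the gene annotation is not given in the sources used here. FPKM is scaled to gene length and library size, so counts and absolute depth are unknown, and values carry 2 decimals. Among 1113 olfactory receptor entries the commonest value above 0 was 0.03 or 0.04 FPKM in every library.

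Here log2(FPKM + 1) was compared with limma 3.58.1 in R 4.3.3 (trend, unpaired) over the 14728 genes whose mean FPKM exceeded 1 in either genotype, with Benjamini-Hochberg adjustment. Exact permutation tests over 126 splits used NumPy 2.4.6 in Python 3.11.15. The fit was first tested on simulated data. Alternatives were pseudocounts of 0.1 and 0.01, no minimum, a minimum of 5 FPKM, median scaling, quantile normalization, no trend, robust estimation, library weights, a replicate block and leaving out each library. Leaving out Wnk1f/f replicate 4 and Wnk1d/d replicate 1 together, and the settings of the exact test of Ptgs2, were added after the data were seen. Coordinates are from GENCODE M21, and promoters from RefSeq on GRCm38.p6. The genes and lists were chosen with earlier results of these data known. Named were the 10 genes, and of the other pathway genes those that passed, those under the minimum, and up to 2 of each role with the highest mean FPKM. Nothing links mice of equal number.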

Additional observations from a re-analysis of the deposited data

Results flagged for a closer look

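Of 82 groups of libraries examined for the prostaglandin genes, the pathway list and Wnk1, 7 had a highest library farther from the rest than Dixon's 95% value allows. Chance gives about 1 in 20 for values with a normal spread. That rate does not hold for the flagged groups of Ptgds and Pla2g4d, whose other values were equal at the 2 decimals given. Ptges had 5.77 FPKM in Wnk1f/f replicate 4 against 4.12 to 4.24 FPKM in the other controls. Ptgds had 0.52 FPKM in Wnk1f/f replicate 3 against 0.26 FPKM in each of the others. Pla2g4d had 0.02 FPKM in Wnk1f/f replicate 2 and 0.02 FPKM in Wnk1d/d replicate 4, and was listed at 0 in the other 7 libraries. Pla2g5 had 2.12 FPKM in Wnk1d/d replicate 1 against 0.30 to 0.80 FPKM in the rest of its group. Wnk1d/d replicate 2 stood apart for Hpgds, the blood-cell prostaglandin D synthase, with 20.69 FPKM against 8.05 to 10.83 FPKM, and for Ptgdr2, a second receptor of prostaglandin D2, with 2.40 FPKM against 1.07 to 1.35 FPKM.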

How the results depend on the processing

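Ptgs1, Ptgs2, Ptgis, Ptgds and Ptger3 stayed higher and Ptgfr and Ptger4 stayed lower under every alternative run for them. Ptgs2 had an exact permutation p under 0.05 in all 12 of its exact alternatives. With no overlap of the genotypes for Ptgs2, that outcome was largely fixed in advance and is no further evidence. Leaving out 1 library at a time gave 1 to 3 prostaglandin genes that rose, 0 to 1 that fell and 1 to 3 past the ratio of 1.5 as well, and 2 to 4 pathway genes that rose and 0 to 1 that fell. Wnk1f/f replicate 4 and Wnk1d/d replicate 1 left out together gave 0 risen prostaglandin genes and 0 past the ratio of 1.5, with 2 pathway genes that rose and 0 that fell, while genes past the adjusted p among all tested dropped from 3249 to 1109. A minimum of 5 FPKM, which leaves Ptgds and Ptgdr out, gave 1 past the ratio and 0 fallen pathway genes. No minimum gave 2 fallen pathway genes (Ptgdr and Pla2g3), and no trend gave 1 fallen prostaglandin gene, Ptgfr.

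With the replicate block 0 prostaglandin genes rose, 0 passed the ratio, 0 pathway genes rose and 0 fell, and the log2 fold change of Wnk1 was -0.52 (limma adjusted p = 0.0518). The block left 220 genes of 3249. Deviations of same-numbered mice correlated by -0.087, -0.0029, 0.022 and -0.27, and the mice share only a number, so the block has no basis in the labels. Replicate 5 is in Wnk1d/d only, so the block sets that library aside and gives the estimates of the fit without it. Beside the main fit, log2 fold changes under the block were smaller for Ptgis (0.63) and Ptger3 (0.46) and larger for Ptgds (0.83). Signs changed for 3 genes that had not passed. On the log2 scale Ptges was -0.034 with the block and -0.059 to 0.114 with 1 library left out, Hpgd -0.126 to 0.077 and Ptger2 -0.550 to 0.035. The cause of these changes was not tested. Fold changes of genes with low FPKM, such as Ptgs2, Ptgds, Ptgdr and Pla2g3, are understated on the log2(FPKM + 1) scale.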

Other observations

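The genes whose pattern over the 9 libraries was most like that of Ptgds, the prostaglandin gene with the largest increase, were Sema3f (Pearson r of log2(FPKM + 1) 0.976), Plch1 (0.976) and Slc39a11 (0.970), given as a description without a test since all libraries are shared and both genotypes enter the correlation. Sema3f encodes a secreted semaphorin and had mean FPKM of 15.5 in Wnk1f/f and 21.6 in Wnk1d/d uteri. Plch1 encodes a phospholipase C, with 1.03 and 1.86 FPKM, and Slc39a11 a zinc transporter, with 9.12 and 13.1 FPKM.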
